A study of Homo sapiens with 6 samples.

Results

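The genes for collagens, laminins and fibrillins build the extracellular matrix, and they were followed in MDA-MB-231 cells after an siRNA against BYSL. Members were all protein-coding genes of the deposited table whose symbol is that of a collagen alpha chain, a laminin alpha, beta or gamma chain, or a fibrillin, 51 of 29538 genes in all. Of these 50 are described here: 38 collagen genes, 10 laminin genes and 2 fibrillin genes. The set was chosen by measured values in part: it was proposed because FBN1 and COL7A1 stood among the largest increases in the same siBYSL against siNC contrast, so the values of these 2 genes are given as a description, without a test. The other members entered by symbol alone.

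Collagens are secreted as trimers of alpha chains wound into a long helix of glycine-rich repeats, and their classes differ in what they assemble into: banded fibrils, sheet-like networks, beaded filaments, anchoring fibrils or molecules that sit on the surface of fibrils. Laminins are cross-shaped trimers of an alpha, a beta and a gamma chain that form the cell-facing sheet of basement membranes, while type IV collagen forms the network behind it. Fibrillins polymerise into microfibrils, which carry elastin and hold latent TGF-beta in the matrix. In breast tissue the basement membrane separates epithelium from stroma, and invasive carcinoma cells make many of its components themselves.

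MDA-MB-231 is an established human line of invasive, oestrogen-receptor-negative breast cancer cells. Cultures received 160 pmol per well of an siRNA named SI-BYSL-Homo-838 (siBYSL, 3 biological replicates) or of a negative-control siRNA (siNC, 3 biological replicates) with Lipofectamine RNAiMAX, and RNA was harvested 48 h later. Both groups were otherwise the same unmodified line, and a single siRNA was used against BYSL. BYSL, a factor of small ribosomal subunit maturation, stood at 16.4 ± 0.943 CPM in siBYSL and 99.9 ± 4.93 CPM in siNC (mean ± SD, n = 3 each), where CPM is the count scaled to the usual fixed total of reads, with TMM factors. All 6 libraries thus followed their labels. Libraries held 27754883 to 32088817 counts in siBYSL and 28606048 to 30476744 counts in siNC.

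Of these 50 members, 36 had enough counts to be tested. The other 14 held between 1 and 44 counts over all 6 libraries together, and 8 of them held 5 or fewer. Among these 14 were FBN2, COL2A1, COL3A1 and COL11A1, which were hardly detected in this line. COL11A2 was the most abundant untested member, with 13, 8 and 8 counts in siBYSL 1 to 3, against 9, 4 and 2 in siNC 1 to 3. At 5 CPM or more over the 6 libraries stood 23 members, which are given in full.

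With edgeR's quasi-likelihood test over all genes, 10 of the 36 tested members were higher in siBYSL and 5 were lower at a Benjamini-Hochberg adjusted p under 0.05. Over all 16412 genes tested, 18.5% were called higher and 18.4% lower, 36.9% in either direction. These shares are background only, since the contrast prompted the choice of genes. With library totals in place of TMM factors, 11 members were higher and 3 lower, and 67.4% of all called genes were higher, against 50% with TMM. With FBN1 and COL7A1 left out the count was 8 higher and 5 lower of 34. The members called higher include COL5A2, which, like the uncalled COL8A2, passed the low-count filter only through siBYSL libraries. The median log2 fold change, siBYSL over siNC, was 0.046 over the 36 members and 0.007 over all genes tested. Members ran from -0.70 for COL15A1 to 1.60 for LAMA4. Without overlap between the groups, siBYSL was above siNC for 13 members and below it for 6, where 24.7% and 24.9% of all tested genes did so. With FBN1 and COL7A1 left out, siBYSL was above siNC for 11 of 34 members and below it for 6. COL5A2 and COL8A2 are among these 11. The adjusted p of single genes below come from the same test, and SD and n = 3 libraries per group apply throughout. In bulk RNA a change in the number of cells that express a gene and a change in RNA per cell cannot be told apart.

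**Figure D1:**
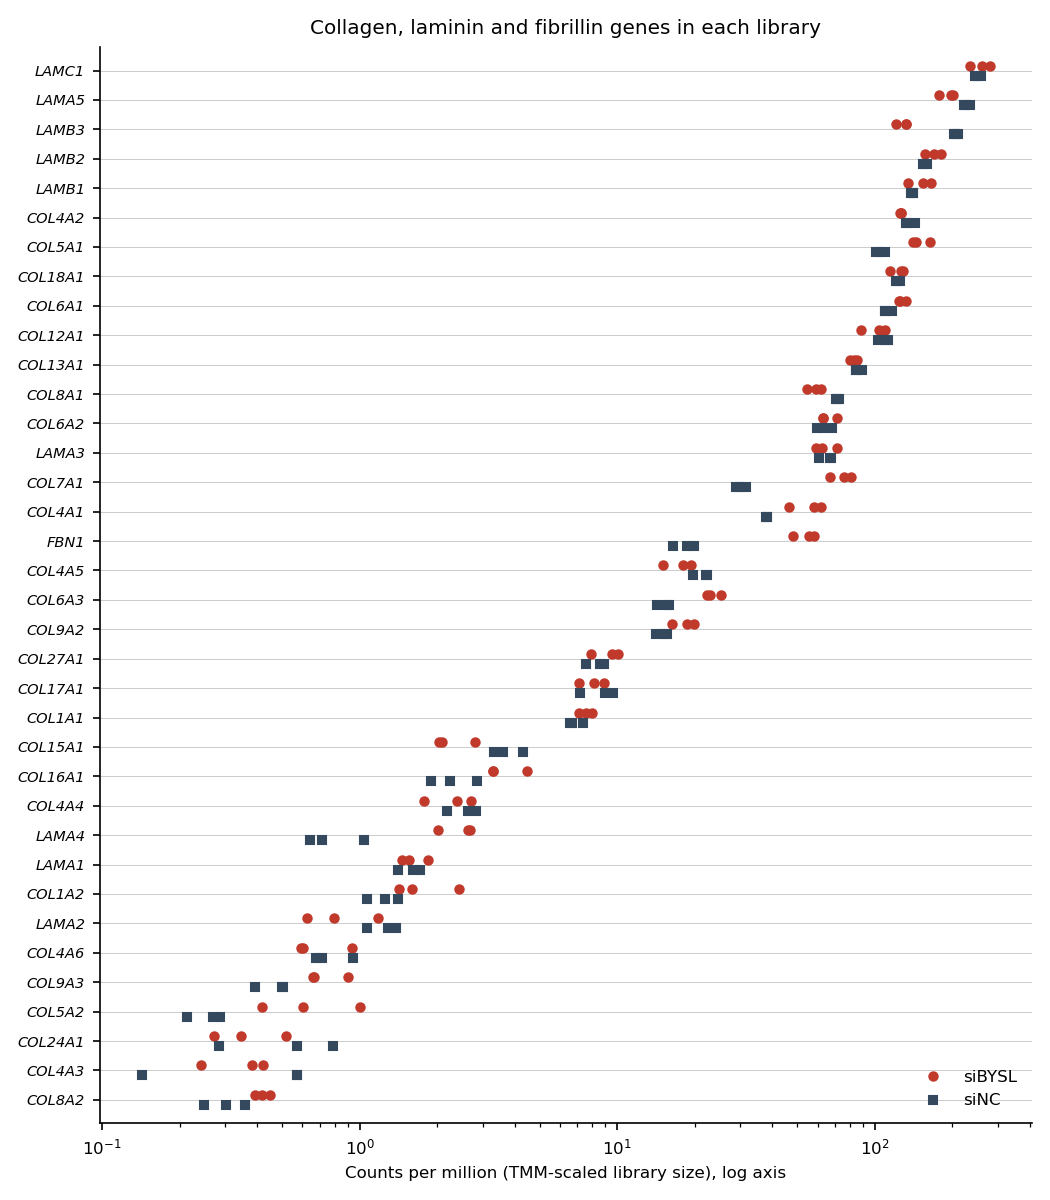
CPM of 36 tested genes in each library, on a log axis, with siBYSL as red circles above siNC as dark squares and genes ordered by mean level. FBN1, COL7A1, COL5A1 and COL4A1 had all siBYSL points to the right of siNC, and LAMB3 had them to the left.

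Fibrillin-1, the main structural protein of microfibrils, was made almost without its relative fibrillin-2. FBN1 had 58.2, 55.7 and 47.95 CPM in siBYSL 1 to 3, against 16.5, 18.7 and 19.8 CPM in siNC 1 to 3. All siBYSL libraries lay above all siNC libraries, and the lowest siBYSL library was siBYSL 3. The means were 53.96 ± 5.35 CPM in siBYSL and 18.3 ± 1.71 CPM in siNC, a log2 fold change of 1.56 (SE 0.091), or 2.94-fold. FBN2 had 0, 0 and 2 counts in siBYSL 1 to 3, against 2, 0 and 0 counts in siNC 1 to 3, so no change could be detected at this depth.

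Type VII collagen, encoded by COL7A1, forms the anchoring fibrils that tie the basement membrane to the stroma below. COL7A1 had 76.2, 67.3 and 80.7 CPM in siBYSL 1 to 3, against 29.99, 31.6 and 28.8 CPM in siNC 1 to 3. The groups did not overlap, and here siBYSL 3 was the highest library. The log2 fold change was 1.31 (SE 0.075), or 2.48-fold. Among the 23 members of 5 CPM or more, COL7A1 stood 12 in order of level per kilobase of exon in siBYSL and 16 in siNC. With the longest transcript in place of all exon bases it stood 15 in siBYSL and 18 in siNC.

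Fibrillar collagens, the rope-forming class, were led in abundance by the type V chain COL5A1. COL5A1 encodes a chain that nucleates fibrils and limits their width. COL5A1 had 164, 145 and 141 CPM in siBYSL 1 to 3, against 104, 109 and 101 CPM in siNC 1 to 3. Every siBYSL library was above every siNC library, and COL5A1 rose (log2 fold change 0.52, SE 0.065, adjusted p = 0.000143). Its partner chain COL5A2 was scarce, with 29, 20 and 12 counts in siBYSL 1 to 3, against 8, 6 and 8 counts in siNC 1 to 3. All siBYSL counts were above all siNC counts, with siBYSL 1 the highest, and these counts are a description only, since COL5A2 passed the low-count filter only through siBYSL.

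Type I collagen, the main collagen of connective tissue, was low in this line. COL1A1 had 7.11, 7.59 and 7.99 CPM in siBYSL 1 to 3, against 6.69, 7.38 and 6.54 CPM in siNC 1 to 3. The groups overlapped, and the difference did not pass the test (log2 fold change 0.14, SE 0.098, adjusted p = 0.294). COL1A2, its partner chain, had 1.42, 1.604 and 2.43 CPM in siBYSL, against 1.25, 1.07 and 1.42 CPM in siNC. Its groups did not overlap by a small margin, and siBYSL 3 stood apart above the rest (adjusted p = 0.0977). Without siBYSL 1, COL1A2 passed the test as higher (log2 fold change 0.68, adjusted p = 0.0471). COL27A1 had 10.1, 9.53 and 7.88 CPM in siBYSL 1 to 3, against 7.55, 8.88 and 8.56 CPM in siNC 1 to 3. This fibrillar collagen of cartilage overlapped between groups (log2 fold change 0.14, SE 0.11, adjusted p = 0.363). COL24A1 was under 1 CPM in all libraries and was not called (adjusted p = 0.326).

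Type VI collagen forms beaded filaments close to cells from chains encoded by COL6A1, COL6A2 and COL6A3. COL6A3 had 25.3, 22.9 and 22.3 CPM in siBYSL 1 to 3, against 15.8, 15.7 and 14.3 CPM in siNC 1 to 3. The groups stood well apart, and COL6A3 rose (log2 fold change 0.62, SE 0.078, adjusted p = 0.000143). COL6A1 had 132, 125 and 125 CPM in siBYSL 1 to 3, against 109.5, 116 and 109.7 CPM in siNC 1 to 3. COL6A1 rose, with the groups apart (log2 fold change 0.19, SE 0.051, adjusted p = 0.0153); without siNC 1 or siNC 3 its adjusted p was 0.0774 and 0.0884 in turn. COL6A2 had 63.01, 63.2 and 71.2 CPM in siBYSL 1 to 3, against 68.3, 63.01 and 59.8 CPM in siNC 1 to 3. COL6A2 overlapped between groups (log2 fold change 0.05, SE 0.069, adjusted p = 0.626); it lies beside COL6A1 on chromosome 21. The log2 ratio of COL6A1 to COL6A2 counts overlapped too (difference 0.14, exact two-sided permutation p = 0.3). COL6A5 had 1 count in siBYSL and 1 in siNC.

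Of 4 tested collagens that decorate fibrils (the FACIT class), 2 were called higher and 0 lower, beside 18.5% and 18.4% of all tested genes. COL9A2, a chain of the type IX collagen of cartilage, had 16.3, 18.7 and 19.8 CPM in siBYSL 1 to 3, against 14.1, 15.3 and 15.6 CPM in siNC 1 to 3. Every siBYSL library was higher (log2 fold change 0.28, SE 0.087, adjusted p = 0.0248). COL16A1 was scarcer, at 3.29, 4.48 and 3.298 CPM in siBYSL and 2.86, 2.25 and 1.89 CPM in siNC, without overlap (log2 fold change 0.67, SE 0.19, adjusted p = 0.0169). Leaving out any 1 of siBYSL 2, siNC 2 or siNC 3 took either call away, and that of COL9A2 was also lost without siNC 1. COL12A1 had 109.9, 104 and 88.6 CPM in siBYSL 1 to 3, against 103, 113 and 109 CPM in siNC 1 to 3. This most abundant FACIT collagen overlapped between groups and was not called (log2 fold change -0.10, SE 0.076, adjusted p = 0.313). COL9A3 was under 1 CPM (adjusted p = 0.0827).

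**Figure D2:**
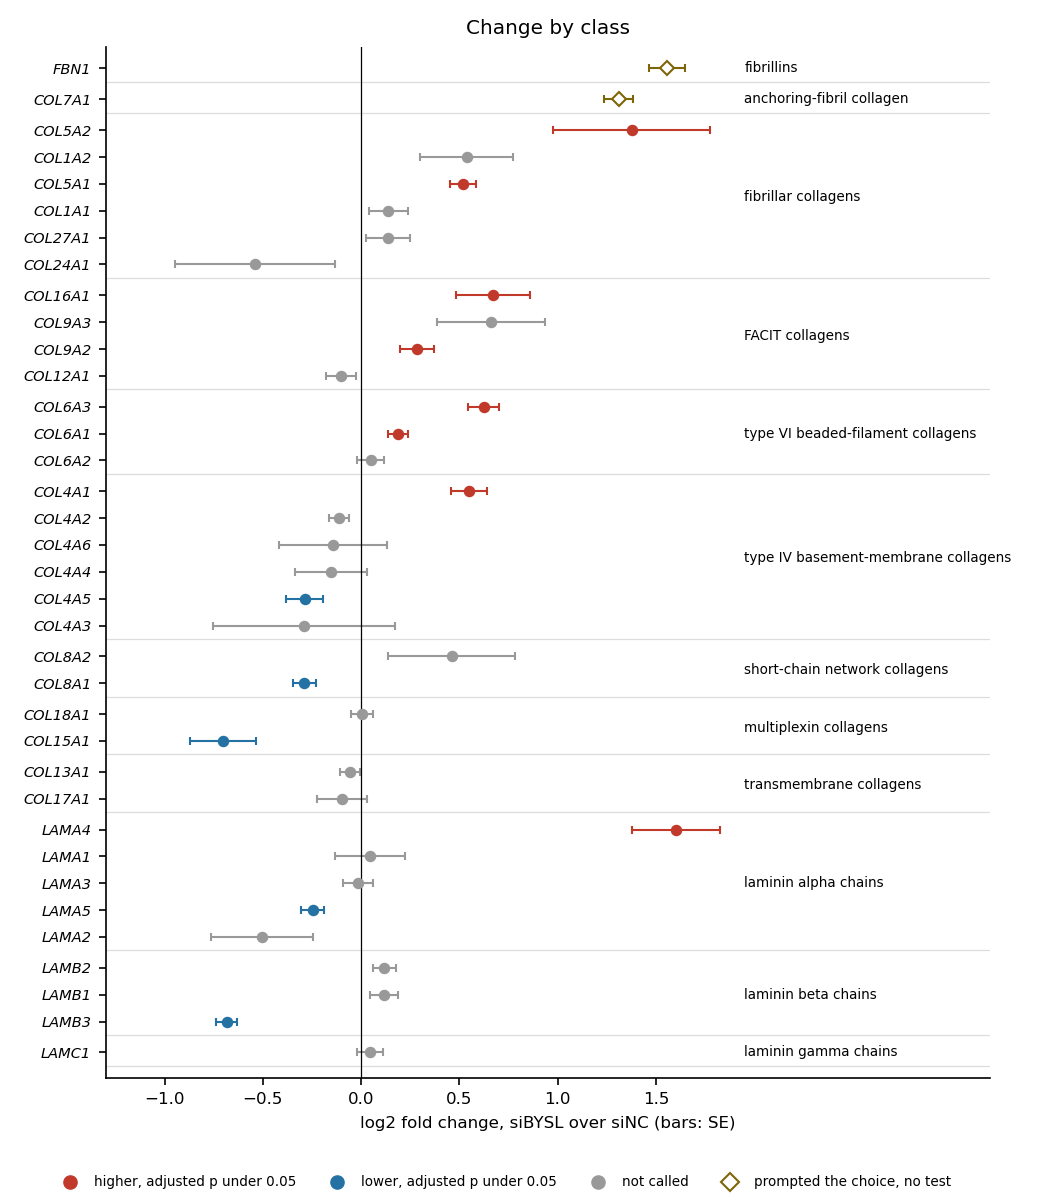
log2 fold change of siBYSL over siNC for 36 tested genes by class, with bars for the SE and colours for the edgeR call. FBN1 and COL7A1 are drawn open because their values prompted the choice of genes. COL5A2 passed the low-count filter only through siBYSL. Right of 0 lie the called fibrillar, FACIT and type VI collagens, COL4A1 and LAMA4. Left of it lie the called COL4A5, COL8A1, COL15A1, LAMA5 and LAMB3.

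Of the 6 chains of type IV collagen, the network of basement membranes, 1 rose and 1 fell. COL4A1 had 61.97, 58.1 and 46.6 CPM in siBYSL 1 to 3, against 37.9, 38.1 and 38.03 CPM in siNC 1 to 3. The siNC libraries were almost equal and the siBYSL libraries all higher, with siBYSL 3 nearest to them; COL4A1 rose (log2 fold change 0.55, SE 0.092, adjusted p = 0.000969). COL4A2 had 126, 126 and 125 CPM in siBYSL 1 to 3, against 134, 143 and 132 CPM in siNC 1 to 3. COL4A2, which joins COL4A1 in the common trimer of type IV collagen, was not called (log2 fold change -0.11, SE 0.050, adjusted p = 0.102), although its siBYSL libraries were all slightly below siNC; without siBYSL 3, COL4A2 passed as lower (log2 fold change -0.107, adjusted p = 0.0416). COL4A5 had 19.3, 18.03 and 15.1 CPM in siBYSL 1 to 3, against 19.7, 22.3 and 22.03 CPM in siNC 1 to 3. COL4A5, whose loss causes Alport syndrome, fell (log2 fold change -0.29, SE 0.095, adjusted p = 0.0355), but the call was lost with library totals (adjusted p = 0.134) or upper-quartile factors as the scaling and without siBYSL 2, siNC 2 or siNC 3. COL4A3, COL4A4 and COL4A6 were at 2.55 CPM or less in both groups, overlapped between groups and were not called (adjusted p = 0.66, 0.551 and 0.718).

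COL4A1 and COL4A2 lie head to head on chromosome 13 and are transcribed in opposite directions, their RefSeq starts lying 127 bases apart (GRCh38.p14). The window from 250 bases before to 50 after the start of COL4A2, chr13:110307034-110307333 on the plus strand, is shown because the start of COL4A1, on the minus strand, lies within it. Capitals mark the 128 bases from the COL4A1 start to the COL4A2 start, both included.
COL4A2 promoter: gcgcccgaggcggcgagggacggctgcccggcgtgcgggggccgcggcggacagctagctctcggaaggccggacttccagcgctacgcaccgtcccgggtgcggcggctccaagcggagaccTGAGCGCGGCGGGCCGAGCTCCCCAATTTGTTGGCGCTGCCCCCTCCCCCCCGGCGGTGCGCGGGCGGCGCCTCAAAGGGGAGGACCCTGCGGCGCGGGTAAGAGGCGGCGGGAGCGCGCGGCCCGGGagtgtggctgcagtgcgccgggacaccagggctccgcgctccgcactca
The GC content of this window was 77.7%. Within a library the ratio of COL4A1 to COL4A2 counts does not depend on scaling. On the log2 scale this ratio was -1.03, -1.12 and -1.42 in siBYSL 1 to 3, against -1.82, -1.91 and -1.79 in siNC 1 to 3, so the groups did not overlap. The difference in the log2 ratio, siBYSL minus siNC, was 0.649, with an exact two-sided permutation p of 0.1, the smallest that 3 against 3 libraries allow, and 0.1333 adjusted over the 4 chain ratios computed. The other head-to-head pairs were COL4A3 with COL4A4, 419 bases apart, and COL4A5 with COL4A6, whose nearest starts lay 380 bases apart. In these pairs 1 or both genes were under 5 CPM.

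Of the remaining collagens, the network-forming COL8A1, known from vessel walls and the cornea, was lower. COL8A1 had 61.6, 59.3 and 54.3 CPM in siBYSL 1 to 3, against 70.6, 72.4 and 71.3 CPM in siNC 1 to 3. All siBYSL libraries lay below all siNC libraries, and COL8A1 fell (log2 fold change -0.29, SE 0.059, adjusted p = 0.00302). COL8A2 stood under 1 CPM, passed the filter only through siBYSL and was not called (adjusted p = 0.315). The multiplexin COL15A1, a basement-membrane proteoglycan, had 2.81, 2.03 and 2.08 CPM in siBYSL 1 to 3, against 4.29, 3.603 and 3.33 CPM in siNC 1 to 3. It fell without overlap (log2 fold change -0.70, SE 0.17, adjusted p = 0.00765).

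COL18A1, the related multiplexin whose C-terminal fragment is endostatin, was close to equal in both groups. COL18A1 had 127, 114 and 128 CPM in siBYSL 1 to 3, against 125, 122 and 121 CPM in siNC 1 to 3. The groups overlapped (log2 fold change 0.004, SE 0.056, adjusted p = 0.964). Exons of SLC19A1 on the other strand cover 16.4% of the exon bases of COL18A1. COL13A1 had 85.02, 80.00 and 82.9 CPM in siBYSL 1 to 3, against 84.9, 84.2 and 88.8 CPM in siNC 1 to 3. COL17A1 had 8.11, 8.93 and 7.12 CPM in siBYSL 1 to 3, against 7.19, 9.67 and 8.99 CPM in siNC 1 to 3. These are transmembrane collagens, that of COL17A1 being part of hemidesmosomes, and neither was called (adjusted p = 0.419 and 0.588).

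Laminin genes were among the most abundant members, and the highest of them in siNC per length, LAMB3, was lower. LAMB3 encodes a beta chain and LAMA3 an alpha chain of the laminins that anchor epithelia through hemidesmosomes. LAMB3 had 132, 121 and 132 CPM in siBYSL 1 to 3, against 209.6, 204 and 204 CPM in siNC 1 to 3. LAMB3 was lower in every siBYSL library, with a wide gap to siNC, and it fell (log2 fold change -0.68, SE 0.053, adjusted p = 6.73e-06), to 0.622 of its siNC level. LAMA3 had 71.3, 62.4 and 58.9 CPM in siBYSL 1 to 3, against 60.5, 67.4 and 67.00 CPM in siNC 1 to 3. LAMA3 overlapped between groups and was not called (log2 fold change -0.02, SE 0.076, adjusted p = 0.881), its sign turning with library totals or upper-quartile factors.

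**Figure D3:**
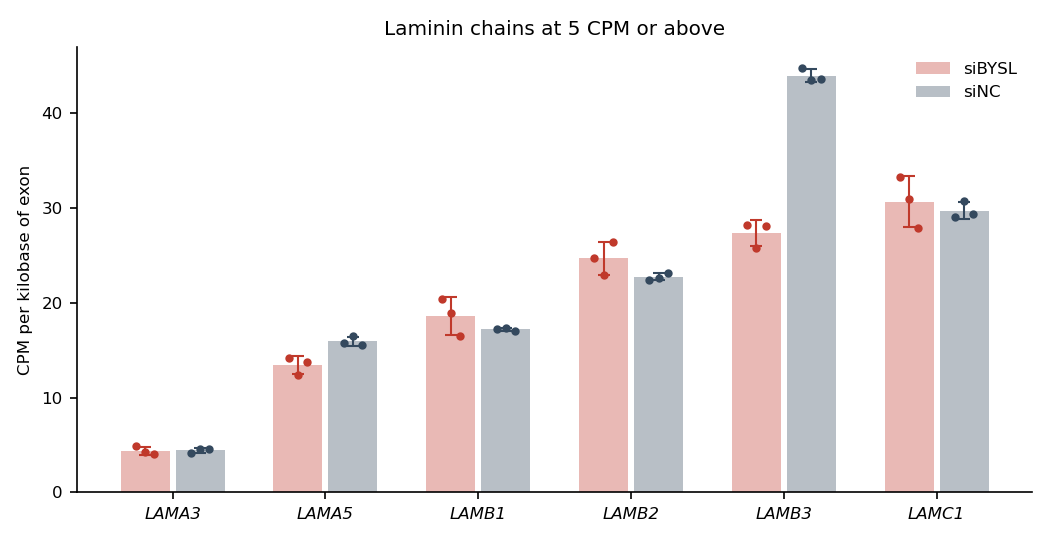
CPM per kilobase of exon for 6 laminin chains of 5 CPM or more, as bars for the mean, whiskers for the SD and points for libraries, with siBYSL in red left of siNC in grey. LAMB3 stood at 27.4 in siBYSL and 43.9 in siNC and LAMC1 at 30.6 in siBYSL and 29.7 in siNC.

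The promoters of LAMA3 and LAMB3 were the only ones, of 39 members with 51 RefSeq windows of 250 bases before to 50 after a start, that held the AP-1 motif TGANTCA on either strand. It was in 1 window of each, 2 of the 51 windows (3.92%), and in 7.71% of all 35116 such windows. The other 2 of the 3 windows of LAMB3, at starts upstream of the one shown, did not hold it. The windows are shown because 1 gene fell and the other was not called, with the motif in capitals (GRCh38.p14).
LAMA3 promoter, chr18:23872770-23873069, plus strand: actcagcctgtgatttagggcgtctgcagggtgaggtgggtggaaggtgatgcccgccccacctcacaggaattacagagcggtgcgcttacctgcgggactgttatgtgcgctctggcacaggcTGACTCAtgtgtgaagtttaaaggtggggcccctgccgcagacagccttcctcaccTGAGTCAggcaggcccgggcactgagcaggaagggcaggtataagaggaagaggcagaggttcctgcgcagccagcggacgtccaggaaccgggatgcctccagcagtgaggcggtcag
LAMB3 promoter, chr1:209651325-209651624, minus strand: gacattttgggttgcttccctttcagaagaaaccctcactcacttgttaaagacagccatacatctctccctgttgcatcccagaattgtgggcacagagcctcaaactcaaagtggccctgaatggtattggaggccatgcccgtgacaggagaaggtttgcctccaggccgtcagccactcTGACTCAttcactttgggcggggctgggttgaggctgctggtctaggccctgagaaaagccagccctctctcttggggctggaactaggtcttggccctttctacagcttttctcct
The matches begin 125 and 69 bases before the start of LAMA3 and 67 bases before that of LAMB3. Both genes have further transcripts that start elsewhere, and counts per gene do not separate them. Searched likewise on both strands, GGAATG was in 4 of the 51 windows of members, GGGCGG in 30, TATAAA in 5 and CCAAT in 14, which is 7.84%, 58.8%, 9.8% and 27.5%, against 14.0%, 44.95%, 11.5% and 34.6% of all windows. A match describes letters and says nothing of binding.

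The laminin-511 and laminin-521 chains, the broad laminins of most basement membranes, included 1 that fell. LAMA5 had 202, 177 and 197 CPM in siBYSL 1 to 3, against 226, 235 and 222 CPM in siNC 1 to 3. LAMA5, their alpha chain, lay below siNC in every siBYSL library and fell (log2 fold change -0.25, SE 0.059, adjusted p = 0.00803); with library totals as the scaling its adjusted p was 0.056. LAMB1 had 166, 154 and 134 CPM in siBYSL 1 to 3, against 140.1, 141 and 138 CPM in siNC 1 to 3. LAMB2 had 169.6, 157 and 181 CPM in siBYSL 1 to 3, against 154, 155 and 159 CPM in siNC 1 to 3. LAMC1 had 279, 259.6 and 234 CPM in siBYSL 1 to 3, against 244, 258 and 247 CPM in siNC 1 to 3. Each of the 3 overlapped between groups, and none was called (LAMB1 log2 fold change 0.12, SE 0.070, adjusted p = 0.227; LAMB2 log2 fold change 0.12, SE 0.058, adjusted p = 0.135; LAMC1 log2 fold change 0.04, SE 0.066, adjusted p = 0.626). Without siBYSL 3, LAMB1 and LAMC1 passed the test as higher, at log2 fold changes of 0.194 (adjusted p = 0.000496) and 0.109 (adjusted p = 0.0366). LAMB2 passed as higher with library totals (adjusted p = 0.0216).

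Counts of LAMA5 against LAMC1 gave log2 ratios of -0.466, -0.554 and -0.25 in siBYSL 1 to 3, against -0.115, -0.136 and -0.153 in siNC 1 to 3. All siBYSL values were lower, with a mean difference of -0.289, at an exact two-sided permutation p of 0.1. LAMB1 against LAMC1 stood at -0.769 ± 0.029 in siBYSL and -0.837 ± 0.036 in siNC, with the nearest libraries of both groups at -0.802 (difference 0.068, exact two-sided permutation p = 0.1).

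LAMA4, the alpha chain of endothelial and mesenchymal laminins, was scarce and had the highest log2 fold change of the tested members. It had 76, 89 and 58 counts in siBYSL 1 to 3, against 18, 20 and 31 counts in siNC 1 to 3, which is 2.45 ± 0.376 CPM in siBYSL and 0.801 ± 0.214 CPM in siNC. Every siBYSL library held more than any siNC library, and LAMA4 rose (log2 fold change 1.60, SE 0.22, adjusted p = 0.000295). LAMA1, of embryonic basement membranes, and LAMA2, of muscle, were at 1.62 and 0.867 CPM in siBYSL, against 1.58 and 1.25 CPM in siNC. Both overlapped between groups and were not called (adjusted p = 0.868 and 0.15). LAMB4 had 2 to 9 counts per library and was not tested.

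Summed over each family, collagen genes stood at 1062 ± 40.1 CPM in siBYSL and 962 ± 19.5 CPM in siNC. The 10 laminin genes stood at 968 ± 49.9 CPM in siBYSL and 1048 ± 14 CPM in siNC, with no overlap in either family. The collagen sum includes COL7A1, whose rise prompted the choice, at 74.7 CPM in siBYSL and 30.1 CPM in siNC. The laminin sum includes LAMB3, at 128 CPM in siBYSL and 206 CPM in siNC. Such sums do not separate a shift of a whole family from changes in single abundant genes, and they were not tested.

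Per kilobase of exon, the order of levels among the 23 more abundant members was led by laminin chains. In siBYSL the first were LAMC1 (30.6 ± 2.69), LAMB3 (27.4 ± 1.398), LAMB2 (24.7 ± 1.76) and COL6A1 (23.8 ± 0.788 CPM per kilobase). In siNC they were LAMB3 (43.9 ± 0.673), LAMC1 (29.7 ± 0.879), LAMB2 (22.7 ± 0.368) and COL6A1 (20.9 ± 0.719 CPM per kilobase). In siBYSL, LAMB2 and COL6A1 differed by less than the SD of LAMB2, whereas LAMB3 in siNC stood clear of the next gene. LAMB3 had rank 2 in siBYSL and rank 1 in siNC. With the longest transcript in place of all exon bases LAMB3 ranked 4 in siBYSL and 1 in siNC, and COL4A2, ranked 13 in both groups by exon bases, ranked 7 in both. At the low end stood COL1A1 and COL27A1, each under 1 CPM per kilobase in both groups.

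**Figure D4:**
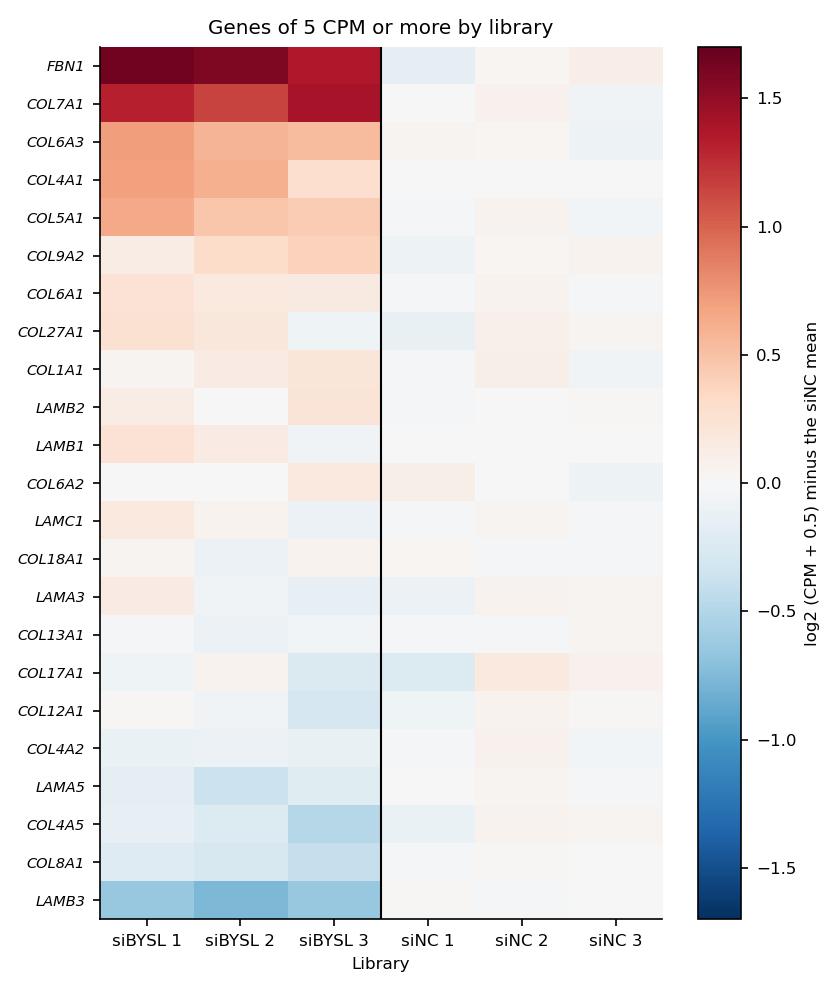
log2 (CPM + 0.5) minus the siNC mean for 23 genes of 5 CPM or more, one column per library with siBYSL left of siNC, in red where higher and blue where lower. COL4A1 and FBN1 were palest in siBYSL 3 among the siBYSL columns.

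Libraries of the siBYSL group differed among themselves. Of the 23 members, siBYSL 3 was the lowest siBYSL library for 14 and siBYSL 1 the highest for 15. The median deviation of these members from the siNC mean was 0.12, 0.056 and -0.051 on the log2 scale in siBYSL 1 to 3, against -0.018, 0.047 and -0.01 in siNC 1 to 3. Over all tested genes the medians lay between -0.001 and 0.007. The members' transcripts are long, with a median of 6586 bases for the longest annotated transcript, against 3232 over all tested genes. The 2635 other tested genes with a transcript of 6000 bases or more had medians of 0.109, 0.052 and -0.052 in siBYSL 1 to 3, against -0.025 and 0.026 in siNC 1 and 2 and about 0 in siNC 3. The part of transcript length in the members' values was not tested. Without siBYSL 3 the members called were 12 higher and 6 lower. Calls over all genes went up too, to 3929 higher and 4075 lower of 16743, from 3032 and 3027 of 16412 with all libraries. In that fit COL4A1 stood at a log2 fold change of 0.659 and LAMB3 at -0.705.

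The genes that process, accompany or bind these proteins were read from 5 lists, and values given with a gene name alone are log2 fold changes. Of 71 tested genes 23 were called higher and 9 lower, beside the 18.5% and 18.4% of all tested genes given above, which are the background for each list. Among enzymes and chaperones of collagen synthesis 9 of 21 rose and 2 fell, with a median log2 fold change of 0.099. COLGALT2 had 45.3, 45.1 and 40.9 CPM in siBYSL 1 to 3, against 29.3, 26.7 and 26.5 CPM in siNC 1 to 3. COLGALT2, which adds galactose to collagen hydroxylysine, was higher in every siBYSL library and rose (log2 fold change 0.67, SE 0.069, adjusted p = 4.05e-05). P3H4, a partner of lysyl hydroxylase, rose by 0.50 and PLOD1, a lysyl hydroxylase, by 0.27 on the log2 scale (adjusted p = 0.00106 and 0.00182). The prolyl hydroxylase subunit genes P4HA2 (0.22) and P4HA3 (1.17), the prolyl 3-hydroxylase gene P3H3 (1.02), CRTAP (0.17), the partner of another prolyl 3-hydroxylase, the collagen chaperone SERPINH1 (0.17) and COLGALT1 (0.13) rose too. The isomerase FKBP14 fell (log2 fold change -0.43, SE 0.083, adjusted p = 0.00208), as did the lysyl hydroxylase PLOD2 (-0.27). P4HA3 and P3H3 were under 2 CPM. Without siNC 2, and likewise without siNC 3, 7 genes of this list were called in place of 11. Over all tested genes, 2317 were higher and 2297 lower without siNC 2, and 2121 and 2105 without siNC 3. With all 6 libraries these counts were 3032 and 3027. With library totals 11 genes of the list were higher and 1 lower, where 67.4% of all called genes were higher. The call of SERPINH1 was lost in 6 of 14 alternatives, that of CRTAP in 5 and that of PLOD2 in 3, and that of COLGALT1 in 9.

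Genes for propeptide removal and crosslinking gave 4 rises and 2 falls of 13 tested, with a median of 0.244. ADAMTS14, a procollagen N-proteinase, had 25.3, 23.8 and 26.6 CPM in siBYSL 1 to 3, against 15.5, 14.3 and 14.1 CPM in siNC 1 to 3. It rose without overlap (log2 fold change 0.78, SE 0.074, adjusted p = 2.63e-05). Peroxidasin, PXDN, which crosslinks type IV collagen, rose by 0.39 (adjusted p = 0.000837). Lysyl oxidases crosslink collagen and elastin and went both ways: LOXL4 (0.29) and LOX (0.25) rose, whereas LOXL2 fell to 261 ± 12.1 CPM in siBYSL, against 355 ± 8.38 CPM in siNC (log2 fold change -0.45, SE 0.053, adjusted p = 0.000107), and LOXL3 fell by 0.48. The call of LOXL3 was lost in 9 of 14 alternatives and that of LOX in 4. In this list 7 were called higher and 1 lower with library totals, and 6 higher and 1 lower with upper-quartile factors. Of all called genes, 67.4% were higher with library totals and 60% with upper-quartile factors, against 50% with TMM.

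Partners of fibrillin in microfibrils gave 4 rises and 2 falls of 14 tested, with a median of 0.068. LTBP1 had 113, 103 and 81.5 CPM in siBYSL 1 to 3, against 45.1, 50.4 and 48.3 CPM in siNC 1 to 3. LTBP1, which tethers latent TGF-beta to fibrillin microfibrils, was higher in every siBYSL library, with the lowest siBYSL value in siBYSL 3, and rose (log2 fold change 1.05, SE 0.10, adjusted p = 3.23e-05). LTBP2, which also binds fibrillin-1, rose by 0.93 (SE 0.092, adjusted p = 3.53e-05), LTBP3 by 0.31 and FBLN1 by 0.39. ADAMTSL4, which promotes fibrillin-1 deposition, fell to 13.6 ± 0.2404 CPM in siBYSL, against 23.2 ± 2.03 CPM in siNC (log2 fold change -0.77, SE 0.079, adjusted p = 4.22e-05), and LTBP4 fell by 0.20. The call of LTBP4 was lost in 8 of 14 alternatives and that of FBLN1 in 7.

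Of 8 tested basement-membrane partners 1 rose and 2 fell, with a median of -0.132. TINAGL1, a secreted matricellular protein that binds laminin, had 78.6, 84.3 and 86.3 CPM in siBYSL 1 to 3, against 139, 134 and 131 CPM in siNC 1 to 3. It fell with a wide gap between groups (log2 fold change -0.70, SE 0.054, adjusted p = 6.73e-06). The heparan sulphate proteoglycan agrin, AGRN, fell by 0.34 (adjusted p = 0.000438), and the laminin-binding netrin NTN4 rose (log2 fold change 0.58, SE 0.085, adjusted p = 0.000397). The perlecan gene HSPG2 was at 51.5 ± 3.56 CPM in siBYSL and 53.9 ± 1.16 CPM in siNC and was not called (adjusted p = 0.448), and SPARC, under 1 CPM, had adjusted p = 0.0545. NID1, for nidogen-1, which links laminin to type IV collagen, was at or near 0.

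Receptors for collagen and laminin gave 5 rises and 1 fall of 15 tested, with a median of 0.056. The collagen receptor kinase DDR1 had 74.1, 72.5 and 71.2 CPM in siBYSL 1 to 3, against 47.6, 46.4 and 49.6 CPM in siNC 1 to 3, and rose (log2 fold change 0.60, SE 0.054, adjusted p = 1.72e-05). Dystroglycan, DAG1, which binds laminin, rose by 0.28 (adjusted p = 0.0029), the collagen uptake receptor MRC2 by 0.41, ITGA10 by 0.43 and CD44 by 0.19; the call of CD44 was lost in 4 of 14 alternatives. ITGA3, the alpha subunit of a laminin-binding integrin, fell to 864 ± 26.4 CPM in siBYSL, against 1061 ± 11.9 CPM in siNC (log2 fold change -0.30, SE 0.051, adjusted p = 0.00115).

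**Figure D5:**
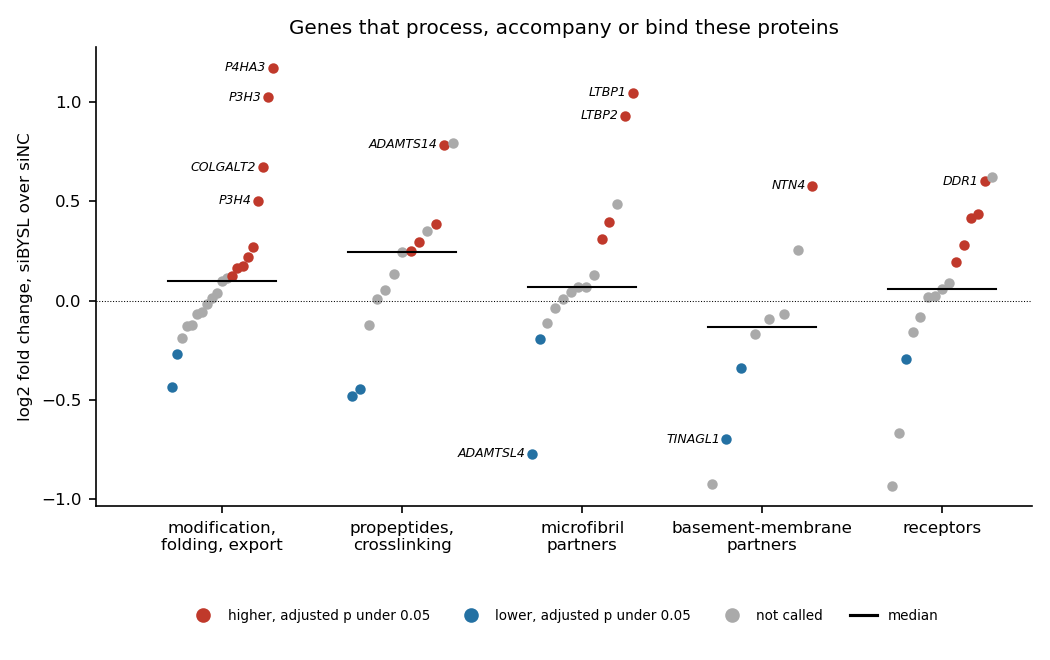
log2 fold change of siBYSL over siNC for the tested genes of the 5 lists, each point a gene coloured by its edgeR call and each line the list's median. LTBP1 and LTBP2 lie near 1 among the microfibril partners, and ADAMTSL4 and TINAGL1 lie lowest among the called genes.

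The guide strand of an siRNA can lower transcripts whose 3′ end regions pair with its seed, bases 2 to 8, so the members' sites are shown. Seed and matching heptamer stand in capitals, the sites with their GRCh38 positions.
siBYSL guide strand: uAUUCAGCaacgucaucuctt
COL5A1, chr9:134842495-134842523, plus strand: ccccacctggaGCTGAATcacatgaccta
COL1A2, chr7:94430466-94430494, plus strand: tttaactgaaaGCTGAATccttccatttc
In the longest annotated 3′ UTR of each gene the heptamer GCTGAAT occurred in 2 of 36 tested members, these 2 genes, and in 1550 of 13064 tested genes (11.9%). COL5A1 rose and COL1A2 was not called. None of the 5 members called lower held the heptamer in that 3′ UTR, beside the 11.9% of all tested genes. An effect of the seed on the members was not tested. With all annotated 3′ UTRs, 5 tested members held it, the others being COL4A1, COL4A2 and FBN1, against 12.98% of all tested genes.

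The line was checked against marker lists. Vimentin, VIM, marked the line at 2090 ± 8.35 CPM in siBYSL and 2400.0 ± 46.5 CPM in siNC, and the oestrogen receptor ESR1 had 0 to 3 counts per library. The 5 mesenchymal breast line markers summed to 4215 to 4401 CPM in siBYSL and 4895 to 4970 CPM in siNC, with AXL, EGFR, MSN and VIM called lower (log2 fold changes -0.51, -0.23, -0.23 and -0.21) and CD44 higher. The 8 fibroblast and stromal markers summed to 13.3 to 14.5 CPM in siBYSL and 9.73 to 11.4 CPM in siNC. Of 3 tested genes, ACTA2 and PDGFRB were called higher and LUM was not called (adjusted p = 0.308). DCN, THY1, POSTN, FAP and PDGFRA were at or near 0. The 5 endothelial markers summed to 10.97 to 12.2 CPM in siBYSL and 9.55 to 10.6 CPM in siNC. Nearly all of this was PECAM1 (6.48 CPM in siBYSL, 5.32 in siNC) and KDR (5.08 CPM in siBYSL, 4.7 in siNC). Neither was called (adjusted p = 0.0541 and 0.541), and CDH5, VWF and TEK were at or near 0. The 4 leukocyte markers in the table summed to 4.71 to 6.25 CPM in siBYSL and 3.603 to 4.33 CPM in siNC, with PTPRC near 0 and CD68, the 1 tested, called higher (log2 fold change 0.49, adjusted p = 0.0136). Of 7 luminal epithelial markers CDH1, EPCAM and ERBB2 were called higher, and KRT8 and GATA3 were not called (adjusted p = 0.763 and 0.535). The list summed to 772.5 to 894 CPM in siBYSL and 765 to 806 CPM in siNC. Most of this sum was KRT8, at 719 ± 63.6 CPM in siBYSL and 705 ± 24.5 CPM in siNC. CDH1, EPCAM and ERBB2 stood at 9.18, 20.9 and 61.9 CPM in siBYSL, against 4.48, 14.4 and 51.3 CPM in siNC. Their log2 fold changes were 1.04, 0.54 and 0.27. The part of cells of other types in the members' values was not tested.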

How the data were processed

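Poly(A)+ RNA of 6 MDA-MB-231 cultures was sequenced from directional libraries as 150-nt paired-end reads, per the labels' protocols. The authors deposited raw counts per gene for each library, with no normalization per the file headers. HISAT2, DESeq2 and GRCh38.p13 are named without a role, per the submitters' processing notes; which program counted reads, and whether it used strand, is not given in the labels. The labels call the replicates biological, and p-values describe the spread of 3 and 3 cultures of 1 line.

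Groups were taken from the sample titles. Counts of all 29538 genes were filtered with filterByExpr, scaled with TMM and tested with edgeR 4.0.16 (R 4.3.3, quasi-likelihood F test), adjusting by Benjamini-Hochberg over the 16412 genes tested. The common biological coefficient of variation was 0.0649. GENCODE 29 gave exon lengths and 3′ UTRs and matched 28659 genes of the table and all 50 members described, and promoters from RefSeq (GRCh38.p14). Exact permutation tests were computed with Python 3.11.15 and NumPy 2.4.6.

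The members and lists were chosen with earlier results of these data known. Full values are given for FBN1, COL7A1 and members of 5 CPM or more over the 6 libraries, and for others that were called. From each companion list every called gene and up to 4 with the smallest p are named. There were 14 alternatives: other scalings, filters and tools (DESeq2 1.42.0, limma 3.58.1), a replicate block, and each library left out. Protein features were not analysed here, and 1 member by the symbol rule is not reported here; counts, sums and ranks over members leave it out.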

Additional observations from a re-analysis of the deposited data

How the results depend on the processing

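Of the 13 called members other than FBN1 and COL7A1, 7 kept their call under all 14 alternatives. The calls of COL16A1, COL4A5, COL6A1, COL9A2 and LAMA5 were lost in 1 to 5 of them, at adjusted p between 0.056 and 0.134. The other of the 13, COL5A2, is a description only, since it passed the low-count filter only through siBYSL. With the stricter filter COL5A2 was not tested. With library totals 3 members were called lower in place of 5, and over all tested genes 1989 in place of 3027. With each library left out in turn, 6 to 12 members were called higher, the lowest without siNC 3. Likewise 7 to 12 genes of the collagen modification list were called, the lowest without siNC 2 or siNC 3. Calls of higher over all genes also ran from 2121 of 16790 without siNC 3 to 3929 of 16743 without siBYSL 3. With all annotated 3′ UTRs, 5 tested members held the seed heptamer in place of 2.

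Signs turned in 7 uncalled members, none called where it turned, and the cause was not tested. With library totals the log2 fold change was 0.022 for COL13A1 and 0.062 for LAMA3, and with upper-quartile factors 0.026 for LAMA3. COL18A1 was at -0.009 with no filter on low counts and -0.006 with DESeq2. With 1 library left out the range was -0.027 to 0.055 for COL18A1, -0.382 to 0.019 for COL4A6, -0.012 to 0.099 for COL6A2, -0.064 to 0.118 for LAMA1, -0.097 to 0.039 for LAMA3 and -0.015 to 0.109 for LAMC1.

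Deviations from the group mean in libraries of the same replicate number had correlations across 16412 genes of -0.217, 0.096 and -0.007. Between libraries of different numbers they ran from -0.245 to 0.242. Deviations from a mean of 3 libraries constrain one another, so these values cannot decide whether pairs exist. The numbers were not taken as pairs. With the replicate block, 10 members were called higher and 5 lower, as without it, and the collagen modification list had 6 higher and 2 lower. Over all 16412 genes, 2802 were higher and 2764 lower with the block. Protein length, repeat share and identity were not run. Counts limit the 14 untested members, each with 13 counts or fewer in any library.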
